A study of Mus musculus with 8 samples.

Results

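The forkhead (Fox) family was followed through 6 peak lists of 5-hydroxymethylcytosine (5hmC) in the mouse. Members were the protein-coding genes of the GENCODE M1 annotation of mm9 whose symbol is Fox, a lower-case letter and a digit, which gave 43 of 22367 protein-coding genes on the nuclear chromosomes. The rule used no measured value. Foxl1, a gut mesenchyme factor, is annotated as a pseudogene in this release and Foxl2os as a non-coding RNA, so both fell outside the rule, as did Foxred1 and Foxred2, whose names only begin alike. 5hmC had been captured by GLIB-Seq, in which a sugar is attached to 5hmC and linked to biotin so that the DNA around it can be pulled down and sequenced. There was 1 library each of E14 embryonic stem cells (ESCs, an established mouse line), embryonic fibroblasts (MEFs) of C57BL/6, brain and liver of C57BL/6 mice aged 8 weeks, and E14 ESCs carrying a GFP hairpin as the control (shGFP) or a hairpin to Suz12 (shSuz12), a subunit of the Polycomb repressive complex PRC2. The labels put the MEFs at embryonic day 11, and the methods give a later day. The knockdown cells were kept in puromycin for 3 days, both knockdown libraries come from the same line, the hairpin behind the shSuz12 library is not named, and neither the sex nor the number of mice behind the MEF, brain and liver libraries is given in the sources used here. RNA-Seq of the knockdown cells was not analysed here, so no expression level stands behind any statement on a gene, and a peak list can check neither the identity of a tissue nor the loss of Suz12.

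Fox proteins bind DNA through a winged helix, and many of them decide which lineage a cell of the embryo enters. Foxa factors open chromatin in the endoderm, Foxc and Foxf factors pattern mesoderm, and Foxo factors carry the signal of insulin and growth factors to the nucleus. Tet enzymes make 5hmC from methylated cytosine, and PRC2 places H3K27me3 on CpG-rich promoters of silent developmental regulators in ESCs.

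The lists held 130408 to 217025 peaks, of which 2017 lay over a member or within 1 kb of its transcription start site (TSS, the 5′ end of the gene record): 348 in ESCs, 418 in MEFs, 327 in brain, 357 in liver, 298 in shGFP and 269 in shSuz12. Each peak has a score, which in MACS lists rises with the negative logarithm of the p-value. Scores began at 80 in ESCs and liver, 50 in shGFP, 30.3 in shSuz12 and 30.0 in MEFs and brain, and the lists give no read numbers, so depth is unknown and a peak in one list can be missing from another through its threshold alone. On the X chromosome the lists held 0.0140 to 0.349% of their peaks, and 3 members lie there: Foxo4, Foxp3 and Foxr2. With 1 library per condition there was no spread between replicates and no test between conditions, and the 95% intervals of shares (exact, Clopper-Pearson) reflect counting error alone. The libraries are bulk samples, in which fewer marked cells and less 5hmC per cell cannot be told apart.

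The family fell into a short and a long class, and 5hmC was distributed differently over them. Of the members, 25 were under 10 kb, from the 977 bp of Foxe3 to the 7514 bp of Foxr1, and 18 were longer, up to the 540629 bp of Foxp2. On the short members, 5hmC was found mostly in the ESC libraries: peaks covered 22.7% of their summed spans in ESCs, 23.3% in shGFP and 11.9% in shSuz12, but 7.18% in MEFs, 3.32% in brain and 2.60% in liver. Over all 8861 protein-coding genes under 10 kb the values were 22.8, 15.4 and 9.34% in the ESC libraries and 10.8, 15.0 and 21.0% in MEFs, brain and liver, so the fall from ESCs to liver on the Fox genes was not that of short genes in general. Counted gene by gene, 10 of the 25 had fewer bp covered in MEFs than in ESCs, and 12 in each of brain and liver (37.0, 33.8 and 26.3% of all short genes had), and 2, 1 and 1 had more (12.4, 14.4 and 24.4%). Of the summed spans of the long members, 21.6% was covered in ESCs and 27.1, 29.6 and 39.5% in MEFs, brain and liver, against 11.3, 11.9, 13.9 and 12.6% over all 13506 genes of at least 10 kb. A few very long genes carry these sums. Gene by gene, 6 of the 18 had more bp covered in MEFs than in ESCs, 8 in brain and 10 in liver, where 34.8, 42.2 and 43.7% of all long genes had more, and 10, 8 and 6 had fewer, against 54.2, 45.4 and 44.2%. The MEF and brain values depended on the score limit, by an alternative chosen after the values were seen. When only peaks scored 80 or more were kept in every list, the long members were covered to 21.6% in ESCs and, in the order MEFs, brain, liver, to 18.4, 17.9 and 39.5% (ESCs first, 11.3, 6.13, 5.38 and 12.6% over all long genes), so MEFs and brain then lay below ESCs and liver alone above. With that limit the short members had 22.7, 5.27, 1.90 and 2.60% covered, against 22.8, 5.26, 6.69 and 21.0% of all short genes, so the MEF value was then that of short genes at large.

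**Figure D1:**
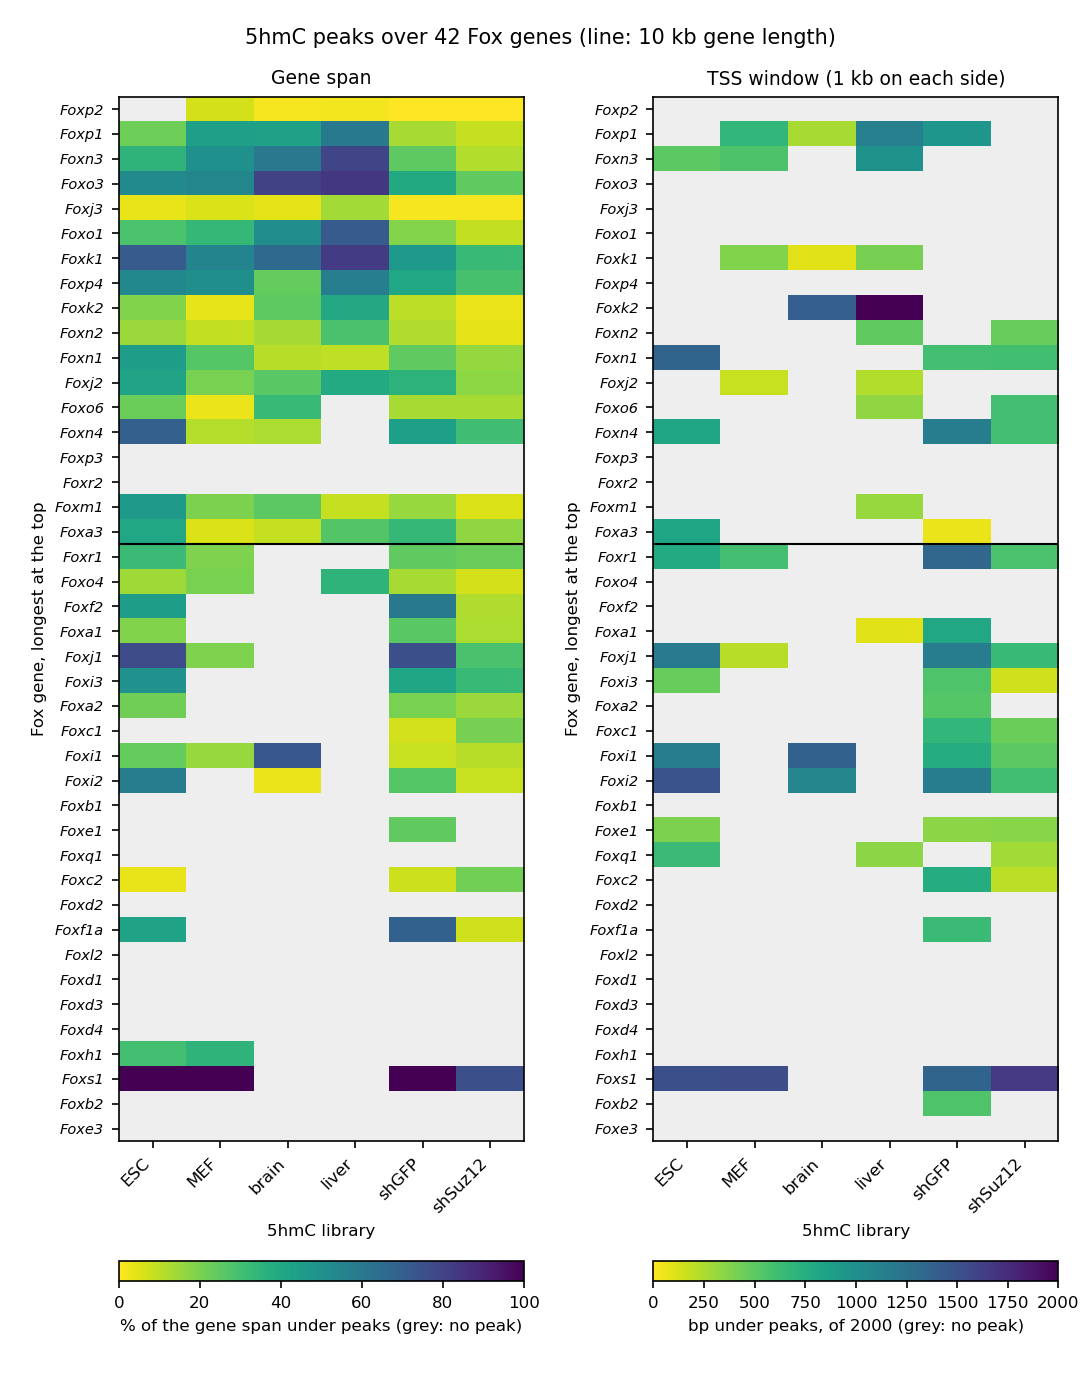
Percentage of the gene span (left) and bp of the 2000-bp TSS window (right) under 5hmC peaks for 42 of the 43 Fox genes (rows, longest at the top) in the 6 libraries (columns), with grey where no peak was found. The 24 genes under 10 kb shown, below the line, are mostly grey in MEFs, brain and liver, while long genes such as Foxo3 and Foxk1 are covered in all 6 libraries.

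Within 1 kb of the TSS, 12 of 43 members had a peak in ESCs (27.9%, interval 15.3 to 43.7%), where 31.9% of all protein-coding genes had one. In MEFs 7 members had a promoter peak against 30.1% of all genes, in brain 5 against 20% and in liver 10 against 29.4%, or 16.3, 11.6 and 23.3% of the members. The order turned in the transfected cells: 18 members (41.9%, interval 27.0 to 57.9%) had a promoter peak in shGFP and 14 (32.6%, 19.1 to 48.5%) in shSuz12, where 27.1 and 21.4% of all genes did. The difference came from the short members, of which 14 (56.0%) had a promoter peak in shGFP against 24.8% of all short genes, while 8 had one in ESCs and 10 in shSuz12, against 30.9 and 20%. In MEFs 3 of the short members had one, in brain 2 and in liver 2, against 23.9, 19.3 and 26.2%. Of the long members 4 had a promoter peak in each of ESCs, MEFs, shGFP and shSuz12, 3 in brain and 8 in liver, against 32.6, 34.1, 28.6, 22.3, 20.5 and 31.5% of all long genes. The low counts depend on the scores: where only peaks scored 80 or more were kept in every list, 1 member was left in MEFs, 1 in brain, 2 in shSuz12 and 14 in shGFP, or 2.33, 2.33, 4.65 and 32.6%, against 12.0, 5.45, 5.07 and 19% of all genes. Within the gene span, 28 members had a peak in ESCs, 22 in MEFs, 18 in brain, 15 in liver, 31 in shGFP and 29 in shSuz12, where 67.8, 61.0, 60.7, 57.9, 63.4 and 63.0% of all genes did, so that a smaller share of the family than of all genes was marked in brain (41.9%) and liver (34.9%). This too lay with the short members: 13 of the 25 had a span peak in ESCs, 6 in MEFs, 2 in brain, 1 in liver, 15 in shGFP and 13 in shSuz12, against 44.2, 32.2, 32.7, 35.4, 38.2 and 35.1% of short genes. Among the 18 long members it was 14 in liver, 15 in ESCs and 16 in each other library, where 72.7% in liver, 83.2% in ESCs and 79 to 81.3% elsewhere of the long genes had one.

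From ESCs to the differentiated cells, 8 of the 12 ESC promoters had no peak in MEFs (66.7%, interval 34.9 to 90.1%, against 47.6% of all genes with an ESC promoter peak). In brain 10 had none (83.3%, interval 51.6 to 97.9%, against 59.3%), and in liver 10 (83.3%, interval 51.6 to 97.9%, against 53.9%). Each interval includes the share of all genes. Foxi1, of the inner ear and kidney, and Foxi2 were the ESC promoters still marked in brain, and Foxn3 and Foxq1 those in liver. Conversely 3 of 7 MEF promoters had no ESC peak (42.9%, against 44.3%), 3 of 5 in brain (60.0%, against 35.1%) and 8 of 10 in liver (80%, against 49.9%). These 8 were Foxa1, Foxj2, Foxk1, Foxk2, Foxm1, Foxn2, Foxo6 and Foxp1. This holds for the outermost TSS. In the windows of all annotated transcript starts, Foxk2, Foxm1 and Foxp1 had 826, 3313 and 2696 bp covered in ESCs too. In bp within 1 kb of the TSS, 10 members had less in MEFs than in ESCs and 5 more (24.8 and 20.5% of all genes), 11 less in brain and 4 more (26.8 and 12.1%), and 11 less in liver and 9 more (23.2 and 23.3%).

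**Figure D2:**
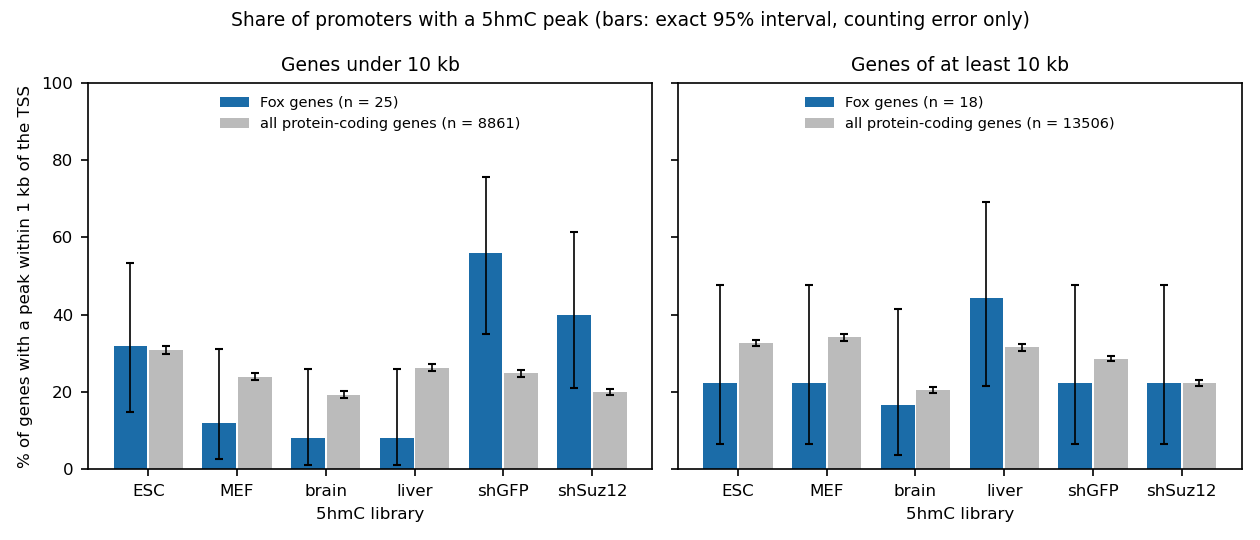
Percentage of genes with a 5hmC peak within 1 kb of the TSS in each library, for Fox genes (blue) and all protein-coding genes (grey), under 10 kb (left) and of at least 10 kb (right); error bars are exact 95% intervals for counting error. Short Fox genes stand at 56.0% in shGFP and at 8.00% in brain and liver, and long Fox genes reach their highest share, 44.4%, in liver.

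Of the 43 members, 17 had no promoter peak in any library (40.6% of all genes had none), namely Foxb1, Foxd1, Foxd2, Foxd3, Foxd4, Foxe3, Foxf2, Foxh1, Foxj3, Foxl2, Foxo1, Foxo3, Foxo4, Foxp2, Foxp3, Foxp4 and Foxr2. None had a promoter peak in all 6 libraries, as 2.71% of all genes had, and Foxi1, Foxi2, Foxj1, Foxp1, Foxr1 and Foxs1 came closest with 4. These counts are for the outermost TSS. In the windows of all annotated transcript starts, Foxp1 and Foxp4 were covered in all 6 libraries. Foxj3 had 520 bp covered there in MEFs and Foxp2 581 bp in shSuz12. The TSS base itself lay under a peak at 6 members in ESCs, 3 each in MEFs, brain and liver, 6 in shGFP and 4 in shSuz12, against 11.8, 6.87, 4.46, 5.38, 11.2 and 5.83% of all genes. Over the gene span, 13 members had a peak in every library (38.4% of all genes did), of which Foxa3, at 10257 bp, was the shortest. The 11 members with none in any library (21.4% of all genes) were Foxb1, Foxb2, Foxd1, Foxd2, Foxd3, Foxd4, Foxe3, Foxl2, Foxp3, Foxq1 and Foxr2. Among these, 9 are under 10 kb and the other two, Foxp3 and Foxr2, lie on the X chromosome, where few peaks were called.

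A window of 5 kb on each side of the TSS is wider than any gene under 10 kb, so it can hold peaks that the gene does not. More of the short members had a peak there than in the gene in every library but MEFs. Over all short genes the share was larger there in every library. Within that distance, peaks were found at 20 of the 25 in ESCs, 24 in shGFP and 23 with shSuz12, against 54.3, 49.5 and 47.9% of all genes under 10 kb. In MEFs 6 had one, in brain 7 and in liver 5, against 45.5, 43.5 and 43.7%. In shGFP the exception was Foxq1, whose nearest peak was 21363 bp from its TSS. In the profile of the short members, the share of genes under a peak was highest at -3700 bp, upstream, in ESCs (36.0%) and at -3500 bp in shGFP (40%). Over all short genes the highest shares were 18.4% at 1700 bp downstream in ESCs and 12.2% at 1500 bp downstream in shGFP. In liver no short member was under a peak within 200 bp of the TSS, where the mean over all short genes was 6.98%. The mean between 500 and 1500 bp downstream was 1.09%, against 13.9% over all short genes. With 25 members these shares rest on few genes.

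**Figure D3:**
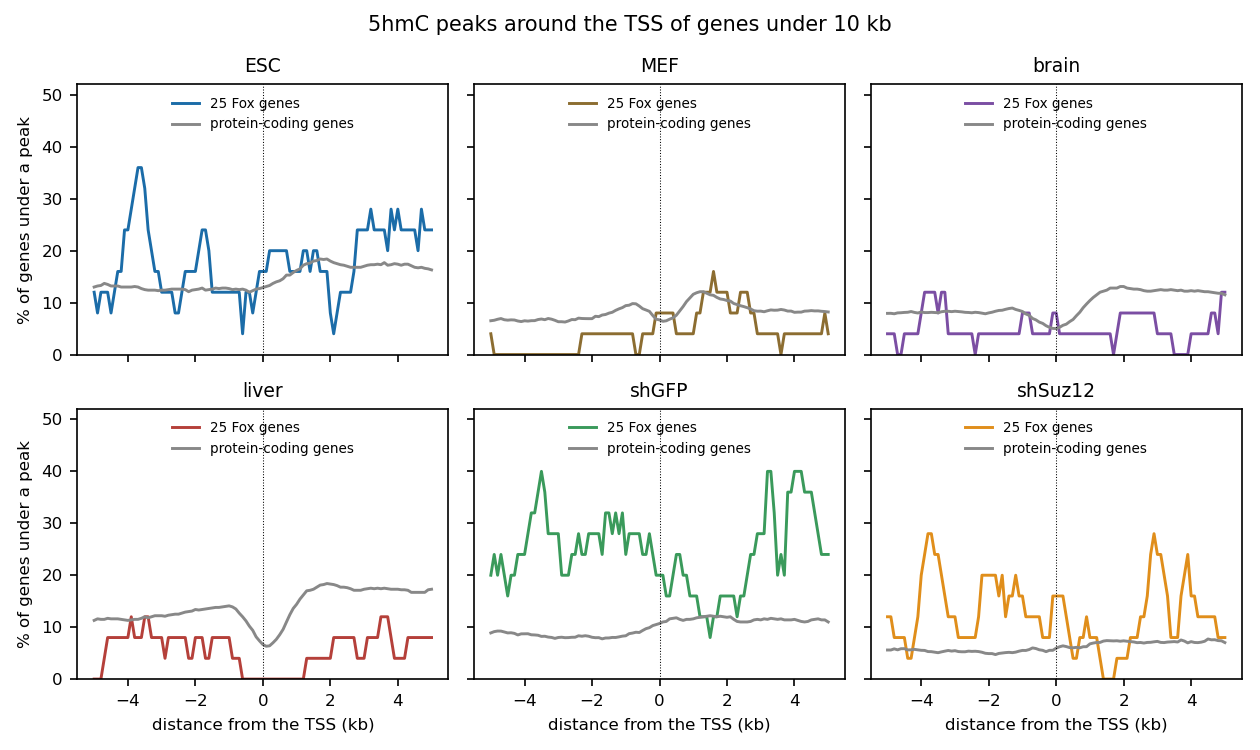
Percentage of genes whose base at a given distance from the TSS (x axis, kb, negative upstream) lies under a 5hmC peak, for the 25 Fox genes under 10 kb (coloured) and all protein-coding genes of that length (grey), with 1 panel per library. The Fox genes lie above the grey line over most of the region in shGFP, where they reach 40%, and below it over most of the region in brain and liver.

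The Foxa genes encode pioneer factors of the endoderm that later serve in liver. Their spans carried 5hmC in the ESC libraries and, except for Foxa3, in no other. Foxa1 (chromosome 12, 58641618 to 58647108, minus strand) had 1034, 1394 and 678 bp of its span covered in ESCs, shGFP and shSuz12, and 0 bp in MEFs, brain and liver. All of these peaks reached into its coding exon from the intron, 2012 to 3405 bp downstream of the TSS in shGFP. In its TSS window 803 bp were covered in shGFP, 86 bp in liver, and none in ESCs, MEFs, brain or shSuz12. The shGFP peak lay upstream, from -1406 to -198 bp, with a score of 151. Foxa2 (chromosome 2, 147868613 to 147872705, minus strand) had the same arrangement, with 882, 825 and 609 bp of its span covered in ESCs, shGFP and shSuz12, almost wholly in the last coding exon, and 531 bp of its TSS window covered in shGFP alone, at a score of 62.2. Foxa3 (chromosome 7, 19598631 to 19608887, minus strand) was covered in each library, over 4158 bp of its span in ESCs, 592 and 910 bp in MEFs and brain, 2747 bp in liver, and 3428 and 1701 bp in shGFP and shSuz12. Its coding exon near the gene end was marked in all 6, with a score of 1485 in ESCs and 656 in liver, and its TSS window in ESCs (819 bp) and shGFP (57 bp). In liver the nearest peak of Foxa1 was 915 bp upstream of the TSS, and 3357 bp within 5 kb of it were covered, while Foxa2 had 740 bp and Foxa3 had none within 5 kb.

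The stretch of Foxa1 nearest the middle of its shGFP promoter peak (chr12:58647790-58648029 of mm9, shown on the gene's minus strand, -921 to -682 bp from the TSS) shows the kind of sequence that was under a peak in shGFP and not in ESCs or shSuz12. It holds 9 CpG, printed in capitals, and lies outside any annotated transcript of the gene.
Foxa1: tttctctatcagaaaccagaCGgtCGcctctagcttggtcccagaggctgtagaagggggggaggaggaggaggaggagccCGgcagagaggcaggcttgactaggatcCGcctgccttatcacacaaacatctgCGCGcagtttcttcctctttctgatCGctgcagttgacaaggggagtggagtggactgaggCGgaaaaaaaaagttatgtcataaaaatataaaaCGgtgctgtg

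The neural regulators reported here were almost bare over the gene and within 1 kb of the TSS. Foxd2, Foxd3, Foxd4, Foxe3 and Foxl2, of other groups, had no peak there either. Foxb1 and Foxb2, of the early neural tube, and Foxd1, of the forebrain and kidney stroma, had no peak over the gene in any library, and a peak reached the TSS window at Foxb2 in shGFP only. Foxb2 (chromosome 19, 16946844 to 16948130, minus strand) had an upstream peak in shGFP, at -1012 to -447 bp with a score of 84.3. For Foxb1 the nearest peak was 1059 bp from the TSS in shGFP and 32271 bp in brain, and for Foxd1 1485 bp in shGFP and 13939 bp in brain. Within 5 kb of the TSS, Foxb1 and Foxb2 had 653 and 3175 bp covered in shGFP and 531 and 587 bp in shSuz12. Foxd1 had 739, 1159 and 595 bp covered there in ESCs, shGFP and shSuz12. In MEFs, brain and liver none of these genes had a peak within that distance. At Foxb2 the sequence under the shGFP peak (chr19:16948740-16948979, minus strand) is dense in CpG, in capitals, with 16 in 240 bp and 60.0% GC.
Foxb2: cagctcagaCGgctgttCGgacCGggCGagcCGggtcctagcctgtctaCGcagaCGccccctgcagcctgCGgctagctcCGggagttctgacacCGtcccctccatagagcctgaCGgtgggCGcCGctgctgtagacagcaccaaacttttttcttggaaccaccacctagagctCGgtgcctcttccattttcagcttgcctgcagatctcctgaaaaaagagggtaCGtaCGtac

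Among the mesodermal and mesenchymal regulators, Foxs1 stood apart from its relatives. Foxs1 (chromosome 2, 152757634 to 152758944, minus strand), a single-exon gene of blood vessel and nerve sheath lineages, lay wholly under 1 peak in ESCs, MEFs and shGFP, and 988 of its 1311 bp were covered in shSuz12, while brain and liver had none. The peaks were 2526 bp wide in ESCs (score 1766), 2620 bp in MEFs (439), 2379 bp in shGFP (425) and 1668 bp in shSuz12 (168). In ESCs, 98.4% of the genes under 10 kb had a smaller share of their span covered. Foxc1 and Foxc2, needed for heart, vessel and eye, were covered within 1 kb of the TSS in the transfected cells and in no other library: Foxc1 by 678 bp in shGFP and 448 bp in shSuz12, and Foxc2 by 764 and 196 bp. The shGFP promoter peak of Foxc2 had a score of 355, above the lowest score of the ESC list, and that of Foxc1 had 123. Foxf1a, of lung and gut mesenchyme, had 1086, 1770 and 188 of its 2566 bp covered in ESCs, shGFP and shSuz12, and none in MEFs, brain or liver. Foxf2, its relative, had 2471, 3319 and 675 bp covered in the ESC libraries, mostly in its intron, and again none in the differentiated cells. Foxd2, of paraxial mesoderm, had no peak in the gene or its TSS window, and its nearest lay 2958 bp away, in shGFP. Foxq1, of stomach and hair, had none in the gene, and an upstream peak covered 634 bp of its TSS window in ESCs, 350 bp in liver and 275 bp in shSuz12. That peak lies in an oppositely transcribed neighbour, A530084C06Rik, and the upstream peaks of Foxc2 lie in Gm20388, a gene record that overlaps Foxf1a and Foxc2, so in these windows a peak cannot be given to a single gene.

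The sequences of this group show how different the marked promoters were. Each is 240 bp, on the gene's plus strand except for Foxs1, with CpG in capitals. Foxc1 (chr13:31897806-31898045) and Foxc2 (chr8:123639018-123639257) are upstream stretches under the shGFP and shSuz12 peaks with 9 and 19 CpG. Foxs1 (chr2:152758076-152758315, minus strand) is coding sequence that was under the ESC, MEF, shGFP and shSuz12 peaks and holds 9 CpG.
Foxc1: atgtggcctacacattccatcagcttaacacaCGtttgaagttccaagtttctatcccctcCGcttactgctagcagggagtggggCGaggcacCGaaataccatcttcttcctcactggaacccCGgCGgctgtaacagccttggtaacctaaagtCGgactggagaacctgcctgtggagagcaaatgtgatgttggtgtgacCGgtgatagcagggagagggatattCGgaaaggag
Foxc2: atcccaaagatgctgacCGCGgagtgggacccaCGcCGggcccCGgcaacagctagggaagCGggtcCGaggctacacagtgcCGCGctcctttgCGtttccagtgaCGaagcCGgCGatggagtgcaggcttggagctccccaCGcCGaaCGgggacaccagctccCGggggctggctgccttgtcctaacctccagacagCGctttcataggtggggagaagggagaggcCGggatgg
Foxs1: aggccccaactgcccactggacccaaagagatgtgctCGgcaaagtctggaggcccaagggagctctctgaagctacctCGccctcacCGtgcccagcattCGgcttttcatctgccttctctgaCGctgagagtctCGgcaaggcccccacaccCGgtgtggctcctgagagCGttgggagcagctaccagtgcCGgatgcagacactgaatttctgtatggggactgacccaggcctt

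The 3 groups of neighbouring members differed in coverage. From 10 kb before Foxf1a to 10 kb after Foxc2 (chr8:123598286-123652792), peaks covered 60.6, 57.0 and 32.4% of the sequence in ESCs, shGFP and shSuz12, and 7.69, 13.4 and 19.8% in MEFs, brain and liver. The whole of chromosome 8 was covered to 13.8, 8.94 and 6.31% in the ESC libraries and 9.23, 8.84 and 7.60% in the others, and the ESC libraries had 8.70 to 9.14% of their peaks there against 5.6 to 5.78% in the others. The part of that chromosome-wide difference in the locus was not tested. Of these peaks, 2 of 24 in ESCs and 3 of 24 in shGFP overlapped a member. Foxf1a and Foxc2 take up 2566 and 2722 bp of the 54507 bp, so these counts are near the genes' share of the region. Around Foxq1, Foxf2 and Foxc1 on chromosome 13 the coverage was 10.8, 9.45 and 6.51% in ESCs, shGFP and shSuz12 and 9.58, 5.48 and 6.83% in MEFs, brain and liver. The whole of chromosome 13 had 5.40, 3.93 and 2.74%, and 8.69, 7.59 and 6.07%. Around Foxd2 and Foxe3 on chromosome 4 it was 6.37, 8.45 and 3.35% in the ESC libraries, 1.66% in MEFs and 0% in brain and liver. The whole of chromosome 4 had 8.47, 5.56 and 3.77% in the ESC libraries. In MEFs, brain and liver it had 8.57, 8.36 and 7.65%.

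**Figure D4:**
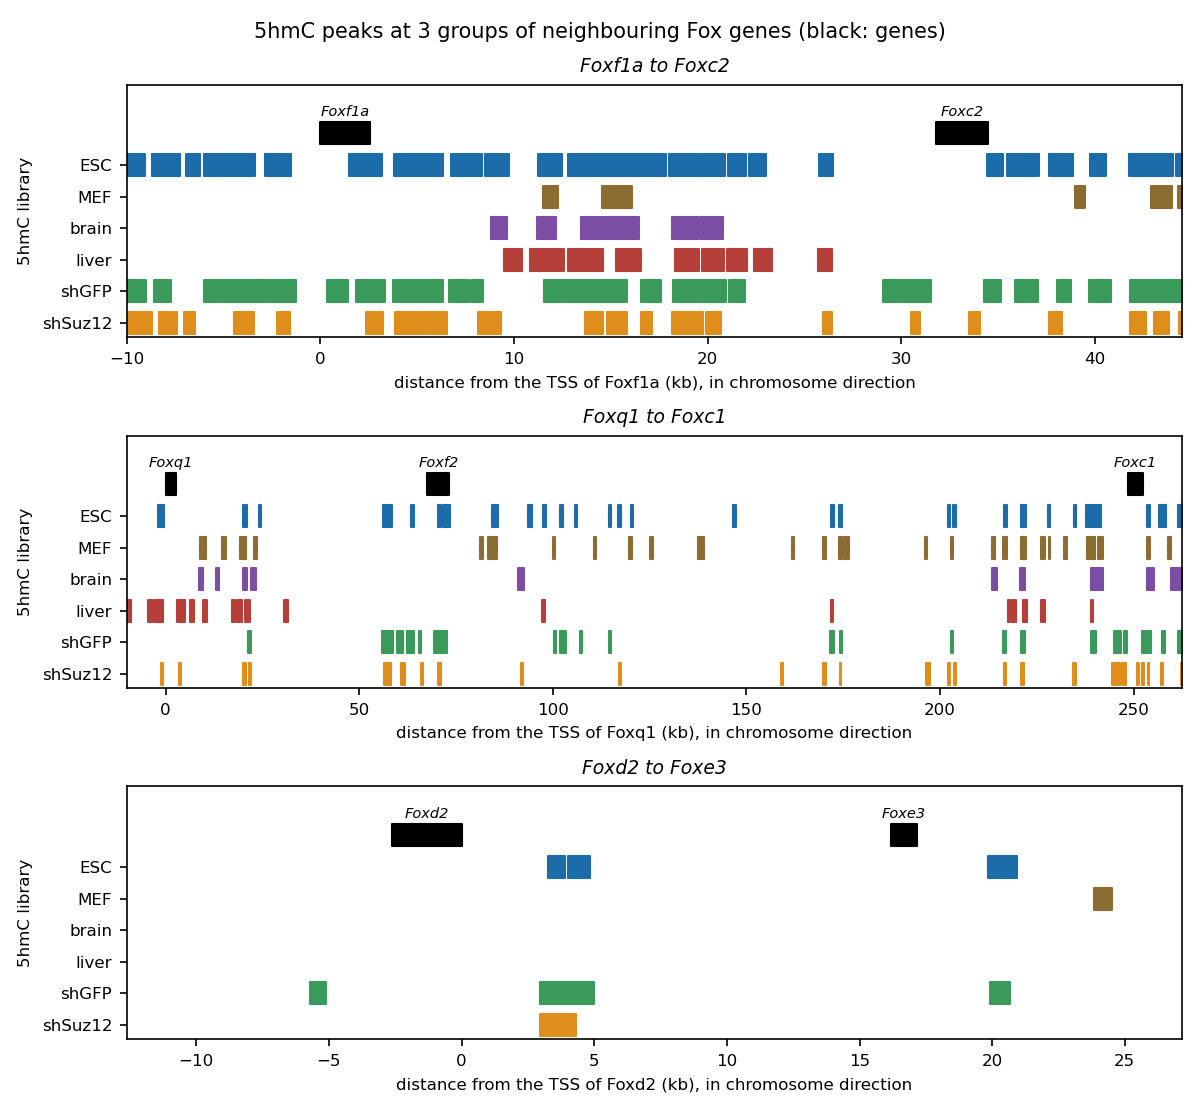
Positions of 5hmC peaks (coloured bars, 1 row per library) around 3 groups of neighbouring Fox genes (black bars), with the distance from the TSS of the leftmost gene on the x axis in kb. Between Foxf1a and Foxc2 peaks lie side by side in ESCs and shGFP (60.6 and 57.0% covered) and are sparse in MEFs (7.69%), while around Foxd2 and Foxe3 brain and liver hold none.

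Foxd3, a factor of pluripotent cells and neural crest, and Foxh1, which carries Nodal signals to DNA with Smad proteins, had no promoter peak in any library. Foxd3 had none in the gene either, and in ESCs its nearest peak was 3361 bp from the TSS, in shGFP 1002 bp and in brain 59661 bp. In Foxh1, a single peak near the gene end, almost wholly in coding sequence, covered 494 bp in ESCs and 579 bp in MEFs, at scores of 84.2 and 31.8. Foxm1, which drives mitotic genes in cycling cells, had 5989 of its 12927 bp covered in ESCs, 2530 and 3265 bp in MEFs and brain, 1126 bp in liver, and 2011 and 687 bp in shGFP and shSuz12. Its only peak within 1 kb of the outermost TSS was in liver, 694 to 1602 bp upstream, over the oppositely transcribed gene 5930416I19Rik. Foxm1 has 5 distinct annotated transcript starts. Their merged windows had 3313, 2372, 1940, 1433 and 1160 bp covered in ESCs, MEFs, brain, liver and shGFP, and 0 in shSuz12. Of 9 genes that act with Foxh1 in Nodal signalling (Nodal, its receptors Acvr1b, Acvr2a and Acvr2b, Smad2, Smad3, Smad4, Lefty1 and Lefty2), 1 in brain, 2 each in ESCs, MEFs and shSuz12 and 3 each in liver and shGFP had a promoter peak, where 20% of all genes did in brain, 31.9, 30.1 and 21.4% in ESCs, MEFs and shSuz12, and 29.4 and 27.1% in liver and shGFP. Their spans were covered to 24.6% in ESCs and 43.7% in liver, against 11.7 and 12.9% over all genes.

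Foxo proteins leave the nucleus when insulin acts through Akt. Foxo1 and Foxo3 were covered over long stretches of the gene and had no peak in the TSS window. Foxo3 (chromosome 10, 41901647 to 41996561, minus strand) had 52.6% of its 94915 bp covered in ESCs and 54.2% in MEFs, 80.4 and 83.7% in brain and liver, and 39.2 and 24.6% in shGFP and shSuz12. In brain only 8 of the 13506 genes of at least 10 kb had a larger share covered, and in liver 44. A single liver peak of 21566 bp, with a score of 3100, ran over the end of the gene, from 77628 to 99193 bp downstream of the TSS. Foxo1 (chromosome 3, 52072259 to 52154031, plus strand) had the same order, with 28.4, 33.4, 51.1 and 71.2% covered in ESCs, MEFs, brain and liver, and 18.7 and 9.31% in shGFP and shSuz12. With peaks scored 80 or more, Foxo3 was covered to 38.6% in MEFs and 69.3% in brain, and Foxo1 to 19.0 and 38.5%, so for both genes MEFs then lay below ESCs. Neither had a peak within 1 kb of the TSS, and in liver the nearest was 1147 bp away at Foxo1 and 2596 bp at Foxo3. Foxo6, which is known mainly from brain, differed: 32.8% of it was covered in brain, 22.3, 13.0 and 13.1% in ESCs, shGFP and shSuz12, 2.97% in MEFs and 0% in liver. With peaks scored 80 or more, Foxo6 was covered to 15.6% in brain, which then lay below the 22.3% of ESCs. Its TSS window had 330 bp covered in liver and 599 bp in shSuz12. Foxo4, on the X chromosome, had 34.9% covered in liver, 20.3% in MEFs, 14.1, 13.2 and 6.54% in the ESC libraries and 0% in brain, and the brain list holds 22 peaks on that chromosome.

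The Foxp genes act in lung, heart, brain and lymphocytes. Foxp1 (chromosome 6, 98875332 to 99216526, minus strand) had 123 peaks each in MEFs and liver, 103 in brain, 76 in ESCs, 50 in shGFP and 47 in shSuz12, and 59.6% of it was covered in liver against 21.9% in ESCs. Foxp2 (chromosome 6, 14851349 to 15391977, plus strand), the longest member, had 41 peaks in MEFs, 12 in liver, 9 in brain, 2 in each transfected library and none in ESCs, and at most 6.31% of it was covered. In Foxp2, 27337 bp lay under a MEF peak and under no peak of ESCs, brain or liver. Foxp4 was covered to 53.5, 40.2 and 29.2% in ESCs, shGFP and shSuz12, 50.1% in MEFs, 57.3% in liver and 23.5% in brain. The MEF and brain values depended on the score limit. With peaks scored 80 or more, Foxp1 was covered to 30.9% in MEFs and 22.4% in brain, the latter near the 21.9% of ESCs. Foxp2 then had 2.69% covered in MEFs, 1.79% in liver and 0% in brain, and Foxp4 32.8% in MEFs and 5.70% in brain. The peak counts and the 27337 bp of Foxp2 were not recounted with that limit. Foxp3, the regulator of regulatory T cells, had no peak in any library, on the X chromosome. At its outermost TSS, Foxp1 was the only Foxp gene with a promoter peak, in MEFs (679 bp), brain (263 bp), liver (1132 bp) and shGFP (952 bp). The outermost TSS of Foxp1 lies beside Eif4e3, over which these peaks extend, and it has 10 distinct annotated transcript starts, whose merged windows had 6718 bp covered in liver, 4632 in MEFs, 2971 in brain and 2696, 2615 and 468 in ESCs, shGFP and shSuz12. By that count Foxp4 too was covered in all 6, with 4109 bp in liver, 2822, 2947 and 1562 bp in the ESC libraries, 1249 in MEFs and 1013 in brain, and Foxp2 had 581 bp in shSuz12.

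Foxj1, the regulator of motile cilia, Foxn1, needed for the thymus, and Foxn4, of retinal progenitors, had promoter peaks in all 3 ESC libraries and, apart from 216 bp at Foxj1 in MEFs, in none of MEFs, brain and liver. Foxj1 (chromosome 11, 116192018 to 116196713, minus strand) had 77.3% of its span covered in ESCs, 75.6% in shGFP, 28.9% in shSuz12, 19.2% in MEFs, and 0% in brain and liver. Foxn4 had 69.3% covered in ESCs, in which 187 long genes were above it, 43.7% in shGFP, 30.7% in shSuz12, 11.0% in MEFs, 12.2% in brain and 0% in liver. A single ESC peak of Foxn4 ran for 5968 bp from 530 bp downstream of the TSS, with a score of 1634. Foxn1 followed with 44.5, 24.3 and 15.8% in the ESC libraries and 26.3, 10.8 and 9.52% in MEFs, brain and liver. The strongest ESC promoter peak of Foxj1 reaches upstream into Rnf157, and the part shown (chr11:116197427-116197666, minus strand) lies upstream of Foxj1. It has 5 CpG, in capitals, and all of it was under a peak in ESCs and shGFP, 169 bp in MEFs and none in shSuz12.
Foxj1: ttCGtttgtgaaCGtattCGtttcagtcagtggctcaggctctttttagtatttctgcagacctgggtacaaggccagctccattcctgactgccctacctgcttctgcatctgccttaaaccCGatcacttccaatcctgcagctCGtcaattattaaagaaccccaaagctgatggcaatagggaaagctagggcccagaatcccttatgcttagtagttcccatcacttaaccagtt

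Of the other members, Foxk1, a factor of muscle progenitors and metabolism, was covered over much of its length, with 71.4, 46.8 and 32.2% of its 60518 bp in ESCs, shGFP and shSuz12, 82.4% in liver, 65.8% in brain and 54.7% in MEFs, and all 4 cell types shared 29.8% of its bp. Foxn3, of cell cycle checkpoints, had 34.9% in ESCs and 49.7, 59.9 and 79.1% in MEFs, brain and liver (38.6, 42.3 and 79.1% with peaks scored 80 or more), while Foxk2, Foxj2, Foxj3 and Foxn2 had at most 41.5% covered in any library. Foxi1 was the only short member whose largest coverage was in brain, 72.9% against 23.5% in ESCs and 0% in liver. Foxi2, Foxi3 and Foxr1 were covered to 57.6, 49.5 and 31.8% in ESCs, and to 0% in liver. Foxe1, of the thyroid, had a span peak in shGFP only, and an upstream peak in ESCs, shGFP and shSuz12. Foxd4, Foxe3, Foxl2 and Foxr2 had no peak in the gene. At Foxk2, the outermost TSS was under a peak of 2704 bp in liver and of 1404 bp in brain. Both peaks also lie over Narf, so they cannot be given to a single gene. The merged windows of its 5 distinct transcript starts had 3535 bp covered in liver, 2374 in brain and 826 in ESCs. Under the liver peak at the outermost TSS, the sequence (chr11:121117171-121117410, plus strand), from the intron, holds 1 CpG, in capitals. The sequences printed above hold from 5 CpG, at Foxj1, to 19, at Foxc2, and all but that of Foxs1 lie upstream of the gene.
Foxk2: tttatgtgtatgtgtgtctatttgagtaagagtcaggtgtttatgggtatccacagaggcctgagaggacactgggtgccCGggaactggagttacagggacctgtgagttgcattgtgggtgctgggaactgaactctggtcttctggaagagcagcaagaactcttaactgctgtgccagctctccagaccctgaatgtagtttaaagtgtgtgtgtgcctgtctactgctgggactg

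Comparison of shGFP with shSuz12 asks how 5hmC at the family differs when PRC2 is depleted. Of the 18 members with a promoter peak in shGFP, 7 had none in shSuz12 (38.9%, interval 17.3 to 64.3%), where 44.1% of all genes with a shGFP promoter peak had none, among them Foxa1, Foxa2, Foxa3, Foxb2, Foxf1a and Foxp1. In the reverse direction, 3 of the 14 shSuz12 promoters had none in shGFP (21.4%, against 29.2% of all), those of Foxn2, Foxo6 and Foxq1. Both shares were near those of all genes. The bp covered in the TSS windows of the members were 13964 in shGFP and 7683 in shSuz12, a ratio of 0.550, and the ratio over all protein-coding genes was 0.540. Fewer bp were covered in shSuz12 at 15 members (24.2% of all genes), more at 6 (9.12%), and equal bp, mostly 0, at 22.

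The largest falls were those of Foxp1, from 952 to 0 bp, Foxa1, from 803 to 0 bp, Foxr1, from 1340 to 563 bp, Foxf1a, from 637 to 0 bp, and Foxc2, from 764 to 196 bp. In ESCs without a hairpin these windows had 0, 0, 775, 0 and 0 bp. The genes were picked for a shGFP value above that of shSuz12, so nothing is read from this order. The largest rises were those of Foxo6, from 0 to 599 bp, Foxn2, from 0 to 467 bp, Foxs1, from 1357 to 1668 bp, Foxq1, from 0 to 275 bp, and Foxe1, from 349 to 355 bp. The shSuz12 peaks of Foxo6, Foxn2 and Foxq1 had scores of 43.3, 49.7 and 36.5, below the lowest score of the shGFP list. With peaks of at least that lowest score in both lists, a setting added once values were known, 9 of 18 promoters had no shSuz12 peak (61.6% of all genes), none was gained (22.9% of all), and the ratio of bp was 0.350 (0.347 for all). Over gene spans, 12 of the 25 short members had fewer bp covered in shSuz12 (32.3% of all short genes) and 3 had more (11.7%). Of the 18 long members, 14 had fewer bp covered in shSuz12 (61.9% of all long genes) and 2 had more (24.4%), Foxp2 and Foxo6 by 62 and 11 bp. Foxf1a fell most in proportion among the short members still covered, from 1770 to 188 bp of its span.

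**Figure D5:**
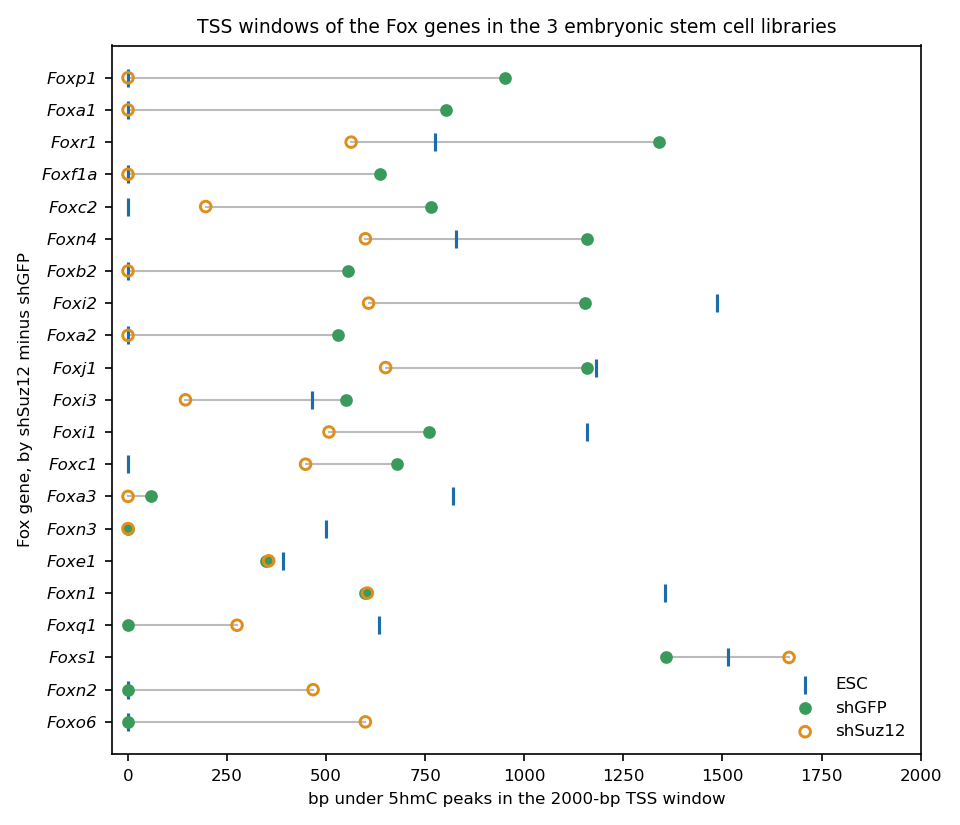
bp of the 2000-bp TSS window under 5hmC peaks in ESCs (blue tick), shGFP (green) and shSuz12 (orange ring) for 21 Fox genes with a promoter peak in at least 1 of these libraries, ordered by shSuz12 minus shGFP. Foxp1, Foxa1, Foxf1a, Foxb2 and Foxa2 have 0 bp in both ESCs and shSuz12 and 531 to 952 bp in shGFP.

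The same comparison without a knockdown, shGFP against untransfected ESCs, also differed. Of the 18 shGFP promoters, 8 had no ESC peak (44.4%), where 20% of all genes with a shGFP promoter peak had none, among them Foxa1, Foxa2, Foxb2, Foxc1, Foxc2, Foxf1a and Foxp1. Conversely, 2 of the 12 ESC promoters, those of Foxn3 and Foxq1, had none in shGFP (16.7%, against 32.0% of all). In bp, 9 members had less in shGFP than in ESCs and 11 more, against 22.8 and 14.4% of all genes. The shGFP peak of Foxa2, at 62.2, scored below the lowest score of the ESC list. When only peaks scored 80 or more were kept in both lists, 6 of 14 shGFP promoters still had no ESC peak (42.9%, against 12.8% of all genes). With that limit in shSuz12 as well, promoter peaks were left at Foxe1 and Foxs1 only, and 12 of the 14 shGFP promoters had no shSuz12 peak (85.7%, against 78.7% of all). Whether transfection, selection or the depth of a library plays a part in these differences was not tested.

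By sequence, the members had more CpG-rich promoters than genes at large. High-CpG promoters (a 500-bp window between 700 bp upstream and 200 bp downstream of the TSS with an observed to expected CpG ratio above 0.75 and over 55% GC) made up 22 of the 43 (51.2%, against 34.2% of all genes), with 11 intermediate and 10 low. High-CpG members had a promoter peak in 4 of 22 in ESCs, 6 in shGFP, 7 in shSuz12, 4 in MEFs, 1 in brain and 7 in liver, against 27.1, 22.3, 17, 34.6, 19.7 and 40.5% of all high-CpG genes. Among 12 high-CpG members under 10 kb, 6 had a promoter peak in shGFP and 0 in brain, where 23.4 and 25.5% of such genes had one. Peaks at the TSS windows of members had a median observed to expected CpG ratio of 0.464 in shGFP, 0.439 in shSuz12 and 0.379 in ESCs, and 0.280 to 0.302 in MEFs, brain and liver. The median over all peaks of the members, at the TSS or not, was 0.260 to 0.323, and over all peaks of a list it was 0.251 to 0.307. The ratio was not taken for the promoter peaks of all genes, so the values at the TSS windows cannot be called particular to the family.

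Exons and introns of the family were covered in another proportion than those of all genes. In ESCs, 28.2% of exonic and 21.0% of intronic bp of the members were under peaks, a ratio of 1.34, against 2.53 over all protein-coding genes. In MEFs, brain and liver the introns of the members were the more covered part, with ratios of 0.665, 0.613 and 0.604, whereas over all genes exons led, with 1.17, 1.64 and 1.84. In shGFP and shSuz12 the ratio was 1.64 in both, against 2.63 and 2.55. In the long members alone, exons and introns differed less in MEFs, brain and liver. The ratios there were 0.906, 0.895 and 0.913, against 1.20, 1.71 and 1.85 over all long genes. The short members had 0.607, 0.597 and 0.267, against 1.24, 1.33 and 1.18 over all short genes. In the ESC libraries the 2 length classes went opposite ways. Over the summed bp of the short members introns led, with ratios of 0.495, 0.551 and 0.919 in ESCs, shGFP and shSuz12. All short genes had 1.34, 1.47 and 1.52. But 13 of the 25 short members have a single exon and no intron, so they count in the exon share only. Of their bp, 1406, 3252 and 2387 were covered in ESCs, shGFP and shSuz12. A ratio for only the short members with an intron was not computed, so these ratios do not compare exon and intron within genes. In the long members exons led, with 1.64, 1.86 and 1.79, against 2.57, 2.64 and 2.60. Intronic bp of the members came to 39.2% covered in liver, against 12.1% over all genes. Foxp1, Foxn3, Foxo3, Foxo1 and Foxk1 had the most bp covered there.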

How the data were processed

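The 6 GLIB-Seq libraries were used. Per the submitters' processing notes and the methods, the authors called bases with CASAVA 1.8, mapped reads to mm9 with Bowtie 0.12.7, retained uniquely mapping reads with duplicates collapsed, and used MACS 1.4.1 for peak calling. The deposited values are the position and score of each peak, called per library. The control and threshold of each list are not given in the sources used here. Mitochondrial peaks were left out. Genes and sequence came from GENCODE M1 and NCBIM37, the assembly of mm9. A peak counted by an overlap of at least 1 bp with the gene span or with 1 kb on each side of the TSS. Members and lists were chosen with earlier results of these data known. Full values were given for members with textbook roles in the endoderm, pluripotent cells, neural tissue, mesoderm, insulin signalling, lung and lymphocytes (Foxp), cilia, thymus and retina, and for the 5 largest falls and 5 largest rises in TSS-window bp from shGFP to shSuz12 (ties by symbol), and the other members by counts and range. Some genes and sequences of these lists are not reported here. Printed sequences are the 240 bp free of UTR nearest the midpoint of the highest-scored peak over the TSS window. Intervals are exact 95% binomial intervals. No test between conditions was made, because each condition has 1 library. The steps were tested on simulated data, with peaks set on 200 TSSs. Python 3.11.15, NumPy 2.4.6, SciPy 1.17.1 and Matplotlib 3.10.9 were used.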

Additional observations from a re-analysis of the deposited data

How the results depend on the processing

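The unknown depth and the unequal lowest scores of the lists limit every comparison between libraries. No paired analysis was possible because no condition has a replicate. Of 143 values under an alternative, 109 stayed within 1.5 times the value given and 34 moved further. The order of libraries was not kept throughout. With a score of at least 80, the spans of all members were covered to 17.8% in MEFs and 17.1% in brain, below the 21.7% of ESCs and not above it, and the TSS windows to 12.9% in both ESCs and shGFP. With the 5′ ends of all transcripts, the TSS windows were covered to 16.8% in ESCs and 15.6% in shGFP, the reverse of the order at the outermost TSS (12.9 and 16.2%). The cause was not tested, except that stricter scores, fewer peaks, narrower windows and midpoints can only remove peaks from a list, and wider windows can only add them. With a score of at least 80, members with a promoter peak numbered 1 in MEFs, 1 in brain and 2 in shSuz12, members with a span peak in shSuz12 16, and 1.78, 1.29 and 2.35% of their TSS windows were covered in MEFs, brain and shSuz12, with 2.48% of their spans in shSuz12. At that score 12 promoters had a peak in shGFP and none in shSuz12, 0 the reverse, and the ratio of bp was 0.182. At the lowest score of the shGFP list, an alternative chosen after seeing the data, the reverse count was 0 and the ratio 0.350. With equal numbers of peaks MEFs had 4 promoters and 3.16% of TSS windows covered, and by midpoints MEFs had 4, brain 3 and liver 4. With 500 bp on each side MEFs had 4, brain 3, liver 3 and shSuz12 9, with 1 promoter gained in shSuz12, and with 2 kb ESCs had 21, MEFs 14, brain 11 and shSuz12 23, with 5 gained and 7.84% of TSS windows covered in MEFs. The 5′ ends of all transcripts gave 8 promoters in brain, and 8.86, 8.25 and 13.5% of TSS windows covered in MEFs, brain and liver. Leaving out the 3 members on the X chromosome, also chosen after seeing the data, moved no value that far. Of the 7 promoters without a shSuz12 peak, 4 to 7 were among those under each alternative, and Foxa1 and Foxb2 were among them under all of these.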
